A study of Homo sapiens with 3 samples.

Results

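The transcript profile of L-428, an established Hodgkin's lymphoma (HL) cell line, was set against those of the HL lines L-540 and HDLM-2, with 1 Affymetrix exon array per line. A gene was counted as higher in L-428 when its signal intensity exceeded 100 in L-428, the level taken as expressed, and was at least 2-fold above the higher of the other lines. It was counted as lower when both other lines exceeded 100 and L-428 was at least 2-fold below the lower of them. Of 14232 genes, 418 (2.94%) were higher and 46 (0.323%) lower in L-428 on the deposited linear scale. After quantile normalization of the 3 arrays, which gives every array the same distribution of values, 167 (1.17%) were higher and 83 (0.583%) lower. The 167 were all among the 418, and the 46 were all among the 83. Total RNA was extracted with Trizol from cells grown under standard conditions, and biotinylated cDNA was hybridized. The submitters describe L-428 and HDLM-2 as treated with vorinostat, which inhibits histone deacetylases, and give no such treatment for L-540. The methods of the study mention no drug for these arrays. Line and treatment therefore cannot be told apart between L-428 and L-540, while L-428 and HDLM-2 carry the same description. With 1 array per line there was no replicate spread, so no test was made and every difference below is one between 3 RNA samples. In such bulk RNA, fewer expressing cells and less RNA per cell cannot be told apart.

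HL is a lymphoma in which the malignant Hodgkin and Reed-Sternberg cells, usually derived from B cells, have lost most of the B-cell program and carry CD30. Constitutive NF-kappaB and JAK-STAT signaling and a rich output of chemokines are known features of these cells. L-428 is regarded as a line of B-cell origin, and L-540 and HDLM-2 are regarded as lines of T-cell origin. The label was examined with cell type markers, since the genes named as marks of L-428 (SH2D1B, LRRN3, MCOLN2, CCL1, PEG10, MET and PHGDH) came from these same arrays. TNFRSF8, which encodes CD30, had a signal intensity of 145 in L-428, with L-540 at 158 and HDLM-2 at 158, and of 9 HL markers 6 exceeded 100 in L-428, compared with 4 for L-540 and 7 for HDLM-2. The 5 measured of 6 defining B-cell markers, PAX5 and CD79A among them, stayed at or below 15.4 in each line, with sums of 43.0 in L-428, against 37.7 (L-540) and 43.5 (HDLM-2). The 6 T-cell markers summed to 41.7 in L-428, with L-540 at 45.7 and HDLM-2 at 46.6, with no member above 28.9. Neither set separated L-428 from the other lines. The myeloid markers summed to 15.6 in L-428, compared with 22.1 for L-540 and 22.1 for HDLM-2, and the markers of fibroblasts and endothelium to 31.0 in L-428, against 28.8 (L-540) and 28.8 (HDLM-2). Of the NK-cell markers, NKG7 had 15.8 in L-428, with L-540 at 168 and HDLM-2 at 14.5, and the other markers of these sets did not reach 100 in any line. Signals of this kind do not fall to 0, since the lowest value on each array was 0.677.

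The array of L-428 stood apart in its distribution. The median intensity of the 22011 transcript clusters was 9.18 in L-428, compared with 7.41 for L-540 and 7.16 for HDLM-2, and the 90th percentile was 103 in L-428, against 66.5 (L-540) and 59.4 (HDLM-2). Genes above 100 numbered 957 in L-428, with L-540 at 569 and HDLM-2 at 498. The order was the opposite for the maximum alone, which was 5776 in L-428, compared with 13263 for L-540 and 13700 for HDLM-2. A maximum is the value of a single cluster and does not describe the strong signals as a group. The share of calls has to be read against the larger number of genes above 100 in L-428. Of the 957 genes above 100 in L-428, 43.7% met the higher rule as deposited, and of the 637 above 100 after quantile normalization 26.2% did. Of the genes above 100 in both other lines, 12% of 384 met the lower rule as deposited and 17.7% of 469 after quantile normalization. The median log2 difference of all genes was 0 against either line as deposited. This 0 falls within ties, since 6884 genes had equal values in L-428 and L-540, and 6414 in L-428 and HDLM-2. L-428 was above L-540 for 4553 genes and below it for 2795, and above HDLM-2 for 4858 and below it for 2960. After quantile normalization the median was -0.22 against L-540 and -0.24 against HDLM-2. Differences on that scale are to be read relative to these shifts. For the 1128 genes that any of the lines had above 100, the medians were 0.77 against L-540 and 1.00 against HDLM-2 as deposited, and 0.24 and 0.25 after quantile normalization. The medians of lists of expressed genes are to be read beside these higher values. Many values were identical between arrays: 6943 clusters had 1 value in all 3 lines, and a further 2452 had the same value in L-540 and HDLM-2 only. Among the higher genes, 29 had equal values in L-540 and HDLM-2. Such ties were not taken as equal expression.

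**Figure D1:**
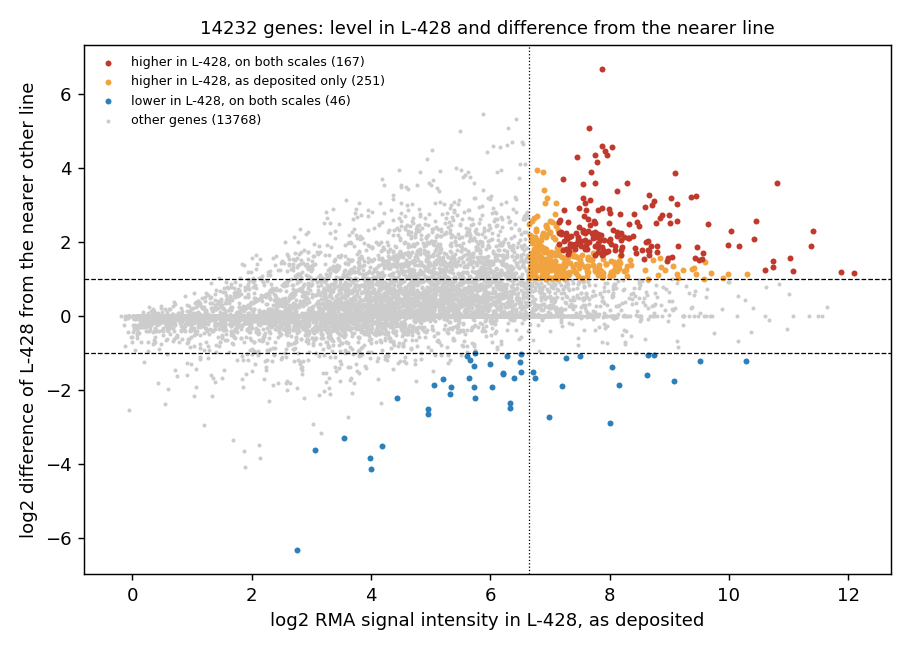
Each point is 1 of 14232 genes, with its log2 signal intensity in L-428 on the horizontal axis and its log2 difference from the nearer of L-540 and HDLM-2 on the vertical axis (0 where L-428 lies between them); the dotted line marks 100 and the dashed lines 2-fold. Red points met the higher rule on both scales (167), orange points as deposited only (251), and blue points the lower rule on both scales (46), while the 37 genes that were lower only after quantile normalization are among the gray points.

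The higher genes mostly had low signals in the other lines. Both other lines were at or below 100 for 342 of the 418, and 76 exceeded 100 in at least 1 of them. The fold over the higher other line was 8 or more for 32 genes, 4 to 8 for 107 and 2 to 4 for 279, with a median of 3.25 and a maximum of 103. L-540 and HDLM-2 lay within 2-fold of each other for 288 of the 418. Of the 46 lower genes, 15 still exceeded 100 in L-428 and 31 did not, the median fold was 3.26, and the other lines lay within 2-fold of each other for 42. These folds follow from the rule and only describe its members, and a fold over a signal far below 100 is no measured ratio of expression. Just inside the higher limit were FBL, the nucleolar methyltransferase fibrillarin, at 2.002-fold, and TMX1 at 2.009-fold. Just outside it were STIP1 and EXOSC4, both at 1.999-fold. For the lower rule, YWHAG at 2.025-fold and S1PR5 at 2.044-fold were just inside, and ARF1 at 1.998-fold and LSM4 at 1.929-fold just outside.

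The first gene by log2 difference as deposited encoded a signaling adaptor. SH2D1B, which encodes the SH2 adaptor EAT-2 of the SLAM family receptors, had a signal intensity of 235 in L-428, against 2.29 (L-540) and 2.18 (HDLM-2). The log2 difference from the nearer line was 6.68 as deposited and 6.22 after quantile normalization. It was 2.45 with an offset of 50 added to each value, where CYB5B (3.21), HSP90AA1 (2.77), ND6 (2.60) and PRR13 (2.54) lay above it. The signals of SH2D1B in the other lines were near the lower quartile of their arrays (2.33 in each), so no exact fold is read from them. The related adaptor SH2D1A had 13.6 in L-428, with L-540 at 4.81 and HDLM-2 at 8.65. Of the 15 measured SLAM receptors and SH2 adaptors, SH2D1B was the single one above 100 in L-428 and was counted as higher. None exceeded 100 in both other lines, so none could be lower. The list median differed by 0 from either line. The receptor CD48 had 3.82 in L-428, compared with 277 for L-540 and 4.23 for HDLM-2, so that its high signal was in L-540 alone. The promoter of SH2D1B, from RefSeq (GRCh38.p14, as for all promoters given here), is shown because this gene had the largest difference as deposited. Capitals mark a match to the AP-1 motif TGANTCA, which reads the same on both strands and overlaps no other searched motif here. Of all 11386 promoters that could be matched, 4.74% hold this motif in the 250 bases before the start.
SH2D1B promoter, chr1:162412137-162412386, minus strand: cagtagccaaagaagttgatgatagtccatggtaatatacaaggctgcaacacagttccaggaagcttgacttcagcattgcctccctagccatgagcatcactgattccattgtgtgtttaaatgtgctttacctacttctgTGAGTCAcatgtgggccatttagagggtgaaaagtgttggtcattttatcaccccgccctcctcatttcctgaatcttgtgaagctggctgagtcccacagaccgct

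Other leading genes encoded membrane proteins of unrelated function. LRRN3, a leucine-rich repeat protein of neuronal membranes, had 201 in L-428, against 5.94 (L-540) and 4.52 (HDLM-2). MCOLN2, a cation channel of recycling endosomes and lysosomes, had 233 in L-428, with L-540 at 3.47 and HDLM-2 at 9.57. MET, the receptor tyrosine kinase for hepatocyte growth factor, had 215 in L-428, compared with 10.6 for L-540 and 5.60 for HDLM-2. Close relatives of these genes did not share the difference. The channel MCOLN1 had 20.3 in L-428, against 29.1 (L-540) and 20.3 (HDLM-2), and MCOLN3 stayed at or below 2.39 in each line. LRRN1 and LRRN2 did not exceed 5.65 in any line. HGF, the ligand of MET, had 1.36 in L-428, with L-540 at 1.36 and HDLM-2 at 1.30, and so no signal near 100 in any of the lines. Of 33 measured receptor tyrosine kinases and ligands, the higher genes were MET and CSF1, the macrophage growth factor, with 212 in L-428, against 13.7 (L-540) and 65.3 (HDLM-2). CSF1 missed the limit after quantile normalization, with a log2 difference of 0.91 from HDLM-2. EPHB1, an ephrin receptor kinase that the list did not contain, had 190 in L-428, against 6.45 (L-540) and 29.5 (HDLM-2). No member of these 3 lists exceeded 100 in both other lines, so none could be counted as lower.

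CCL1, a chemokine that attracts T cells through its receptor CCR8, had 263 in L-428, with L-540 at 9.29 and HDLM-2 at 11.1. PEG10, an imprinted gene derived from a retrotransposon, had 242 in L-428, compared with 9.29 for L-540 and 11.1 for HDLM-2. The values of CCL1 and PEG10 in the other lines form 1 identical pair that 3 clusters of the arrays share, so the size of both differences rests on a repeated low value. SGCE, an imprinted neighbor of PEG10, had 27.1 in L-428, against 5.65 (L-540) and 5.65 (HDLM-2). Among 31 measured chemokines and chemokine receptors, CCL1 and the receptor CCR4 were higher and the receptor CCR7 was lower as deposited, and CCR4 was not counted after quantile normalization. The 2 higher genes stood among 5 members above 100 in L-428 as deposited, near the 43.7% of all such genes. CCR7 was the single member above 100 in both other lines. CCR4, which binds CCL17 and CCL22, had 105 in L-428, with L-540 at 1.30 and HDLM-2 at 48.9. CCR7, which guides cells to lymph nodes, had 398 in L-428, compared with 832 for L-540 and 1348 for HDLM-2. CCL17 and CCL22, chemokines known for HL, did not follow CCL1. CCL17 had 79.3 in L-428, against 20.9 (L-540) and 233 (HDLM-2). CCL22 had 10.6 in L-428, with L-540 at 12.2 and HDLM-2 at 535.

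**Figure D2:**
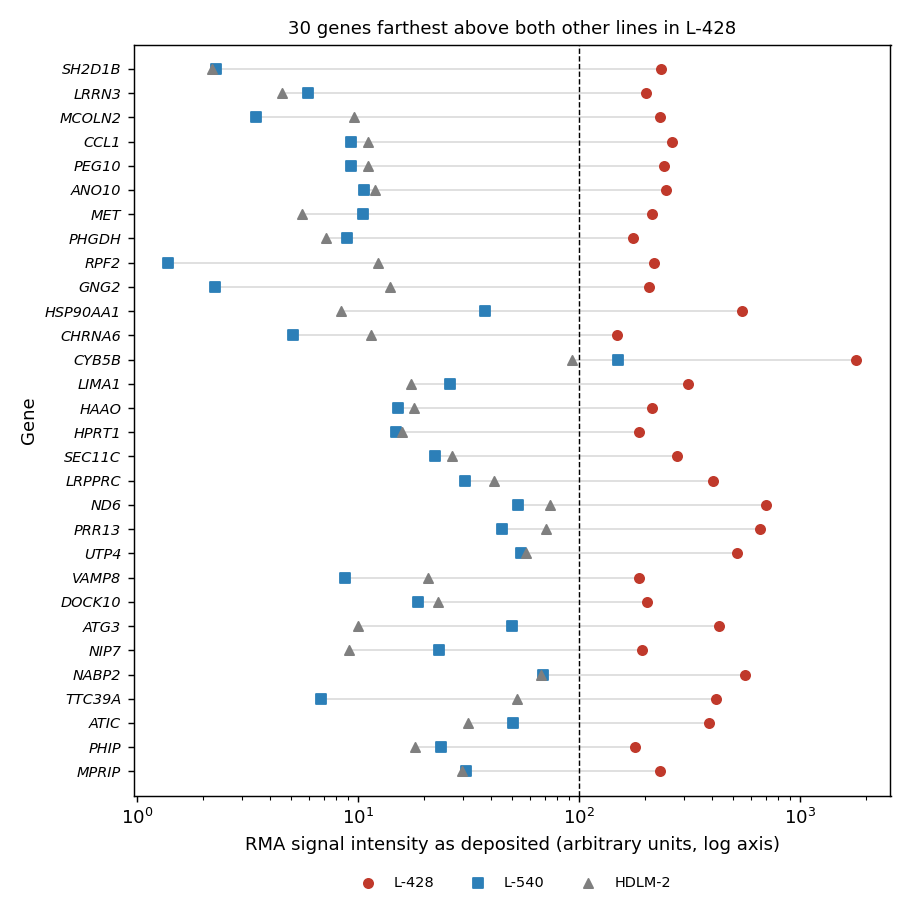
Signal intensity as deposited (logarithmic horizontal axis) of the 30 genes with the largest difference above both other lines among the 167 that were higher on both scales, with L-428 as red circles, L-540 as blue squares and HDLM-2 as gray triangles; the dashed line marks 100. In L-428 the 30 genes lie between 149 (CHRNA6) and 1797 (CYB5B), and of the other lines 1 value exceeds 100, that of CYB5B in L-540 (150).

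Enzymes of metabolism were among the leading higher genes. PHGDH, the first enzyme of serine synthesis from glucose, had 176 in L-428, compared with 8.94 for L-540 and 7.20 for HDLM-2. Its log2 difference from the nearer line was 4.30 as deposited, 3.74 after quantile normalization and 1.94 with the offset of 50, and the signals of the other lines were about the medians of their arrays. Of 13 measured enzymes and carriers of serine and one-carbon metabolism, 4 were higher as deposited and 2 after quantile normalization. None was lower, with 2 members above 100 in both other lines on either scale. The 4 stood among 7 members above 100 in L-428 as deposited, and the 2 among 5 after quantile normalization. Of all such genes, 43.7% and 26.2% were higher. TYMS, which makes thymidylate with a folate cofactor, had 236 in L-428, against 73.8 (L-540) and 38.3 (HDLM-2). MTHFD1, the cytosolic folate enzyme, had 120 in L-428, with L-540 at 33.8 and HDLM-2 at 22.0. SHMT2, the mitochondrial enzyme that splits serine, had 699 in L-428, compared with 263 for L-540 and 318 for HDLM-2. MTHFD1 and SHMT2 were not counted after quantile normalization. Of the 13, 12 were above both other lines and 1 was equal. The median log2 difference was 1.68 against L-540 and 1.44 against HDLM-2 (all genes 0 and 0). For the genes that any line had above 100, the medians were 0.77 and 1.00. After quantile normalization the list medians were 1.10 and 0.71, beside 0.24 and 0.25 for those genes. The other members include PSAT1, the next enzyme of serine synthesis, with 39.5 in L-428, against 2.76 (L-540) and 28.5 (HDLM-2), so that the distance of PSAT1 from HDLM-2 was small. MTHFD2, with 793 in L-428, against 476 (L-540) and 210 (HDLM-2), did not reach 2-fold.
The promoter of PHGDH is given as that of the leading enzyme, with matches to CCAAT and, on the opposite strand, to the TATA box TATAAA in capitals, which do not overlap. Of all promoters, 34.7% hold CCAAT and 8.21% hold TATAAA on either strand.
PHGDH promoter, chr1:119711684-119711933, plus strand: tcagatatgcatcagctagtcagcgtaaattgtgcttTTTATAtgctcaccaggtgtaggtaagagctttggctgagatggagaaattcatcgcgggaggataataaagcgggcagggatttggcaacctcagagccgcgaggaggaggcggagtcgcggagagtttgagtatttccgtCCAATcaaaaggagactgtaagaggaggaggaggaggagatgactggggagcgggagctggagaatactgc

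Enzymes of nucleotide and energy metabolism stood beside them. HPRT1, which salvages purines, had 187 in L-428, compared with 14.9 for L-540 and 15.8 for HDLM-2. ATIC, which completes purine synthesis, had 388 in L-428, against 50.5 (L-540) and 31.5 (HDLM-2). PNP, which splits purine nucleosides, had 337 in L-428, with L-540 at 24.6 and HDLM-2 at 75.1. In all 3 genes L-428 was the highest line by a wide margin. HAAO, an enzyme of the kynurenine pathway, had 215 in L-428, compared with 15.2 for L-540 and 18.0 for HDLM-2. CYB5B, a cytochrome b5 of the outer mitochondrial membrane, had 1797 in L-428, against 150 (L-540) and 93.3 (HDLM-2). LRPPRC, which stabilizes mitochondrial mRNAs, had 403 in L-428, with L-540 at 30.5 and HDLM-2 at 41.5. Mitochondrially encoded genes differed among themselves. ND6, a mitochondrially encoded subunit of complex I, had 702 in L-428, compared with 52.9 for L-540 and 74.3 for HDLM-2, whereas ND5, encoded by the same genome, had 3200 in L-428, against 2715 (L-540) and 2715 (HDLM-2). LDHB, a subunit of lactate dehydrogenase, had 2660 in L-428, with L-540 at 721 and HDLM-2 at 98.1. LDHA, the other main subunit, had 2877 in L-428, compared with 2873 for L-540 and 1920 for HDLM-2, and did not separate L-428 from L-540. The genes EPHB1, PNP and LDHB were named after their values were seen.

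Genes of mitosis and proliferation formed the list with the largest median difference from L-540. Of 31 measured members, 11 were higher as deposited and 5 after quantile normalization, and 30 were above both other lines. None was lower, with 1 member above 100 in both other lines as deposited and 2 after quantile normalization. The 11 were 11 of the 13 members above 100 in L-428, beside the 43.7% of all genes above 100 there. The median log2 difference was 1.88 against L-540 and 1.62 against HDLM-2 as deposited, and 1.38 and 1.01 after quantile normalization. AURKB, the kinase of the chromosomal passenger complex, had 340 in L-428, against 38.4 (L-540) and 50.7 (HDLM-2). BUB1, a spindle checkpoint kinase, had 194 in L-428, with L-540 at 20.1 and HDLM-2 at 26.7. CCNA2, the cyclin of S and G2 phase, had 316 in L-428, compared with 73.8 for L-540 and 32.9 for HDLM-2. These 3 genes, with TOP2A and TPX2, made up the 5 that were higher on both scales. TOP2A, the topoisomerase of dividing cells, had 224 in L-428, against 57.5 (L-540) and 31.4 (HDLM-2). TPX2, a spindle assembly factor, had 172 in L-428, with L-540 at 49.0 and HDLM-2 at 24.8. For some other members HDLM-2 was close enough to L-428 that the call was lost after quantile normalization. MKI67, the Ki-67 antigen, had 237 in L-428, compared with 36.5 for L-540 and 106 for HDLM-2. PLK1, a mitotic kinase, had 257 in L-428, against 52.4 (L-540) and 119 (HDLM-2). CCNB2, a mitotic cyclin, had 208 in L-428, with L-540 at 30.5 and HDLM-2 at 71.4. Some mitotic genes above 100 were not counted: NUSAP1 had 128 in L-428, compared with 112 for L-540 and 121 for HDLM-2, and CDC20 had 139 in L-428, against 96.3 (L-540) and 97.8 (HDLM-2).

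**Figure D3:**
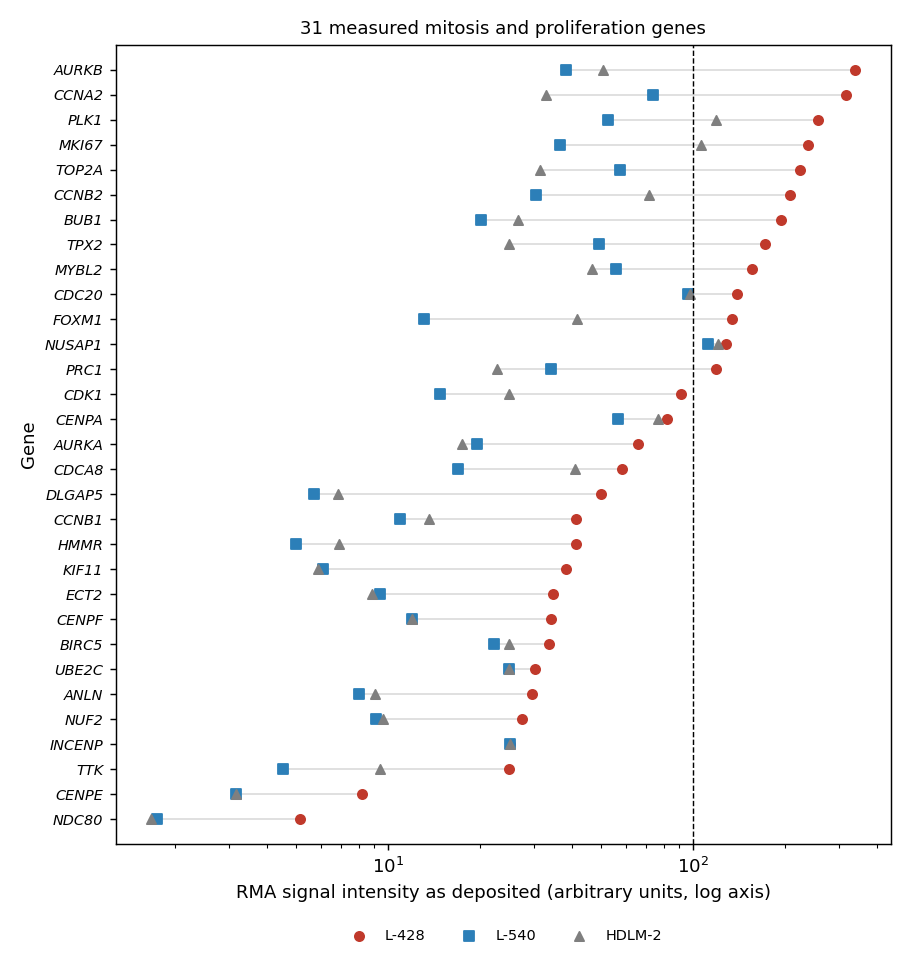
Signal intensity as deposited (logarithmic horizontal axis) of the 31 measured genes of mitosis and proliferation, ordered by L-428, with L-428 as red circles, L-540 as blue squares and HDLM-2 as gray triangles; the dashed line marks 100. L-428 is the highest line for 30 genes and tied for INCENP (25.1 in each line), from AURKB (340 in L-428) down to genes far below 100.

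Promoters of cell cycle genes are known to combine CCAAT boxes, bound by NF-Y, with the cell cycle genes homology region (CHR), bound by the DREAM and MuvB complexes. Of the 25 promoters found for the list, 80.0% held CCAAT and 60.0% held the CHR motif TTTGAA on either strand within the 250 bases before the start, against 34.7% and 10.4% of all promoters. For the 362 promoters of the 418 higher genes the shares were 42.5% and 10.5%, and for the 827 promoters of the genes above 100 in L-428 they were 40.7% and 9.55%. PLK1, CCNB2 and PRC1 are shown as examples of members that carry both motifs, with both motifs in capitals. MKI67 and TOP2A also carry both, while AURKB, BUB1 and CCNA2 hold CCAAT but no TTTGAA. In PLK1 the E-box motif CACGTG is in capitals as well, and no motif overlaps another in the promoters shown. The E-box reads the same on both strands and is found in 7.96% of all promoters. PRC1, which bundles microtubules at the central spindle, had 119 in L-428, with L-540 at 34.2 and HDLM-2 at 22.8. A match describes the letters of the sequence and no binding.
CCNB2 promoter, chr15:59104896-59105145, plus strand: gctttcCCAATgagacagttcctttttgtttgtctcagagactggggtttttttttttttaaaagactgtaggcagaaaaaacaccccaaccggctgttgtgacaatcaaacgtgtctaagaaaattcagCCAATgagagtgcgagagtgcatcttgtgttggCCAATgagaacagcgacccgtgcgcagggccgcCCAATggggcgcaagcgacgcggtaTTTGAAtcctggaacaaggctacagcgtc
PLK1 promoter, chr16:23678639-23678888, plus strand: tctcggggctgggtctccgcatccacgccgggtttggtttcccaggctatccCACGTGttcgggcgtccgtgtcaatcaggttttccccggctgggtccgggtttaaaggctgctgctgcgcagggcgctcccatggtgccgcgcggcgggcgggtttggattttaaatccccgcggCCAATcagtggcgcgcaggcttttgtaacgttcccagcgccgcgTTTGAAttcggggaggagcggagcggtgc
PRC1 promoter, chr15:90994536-90994785, minus strand: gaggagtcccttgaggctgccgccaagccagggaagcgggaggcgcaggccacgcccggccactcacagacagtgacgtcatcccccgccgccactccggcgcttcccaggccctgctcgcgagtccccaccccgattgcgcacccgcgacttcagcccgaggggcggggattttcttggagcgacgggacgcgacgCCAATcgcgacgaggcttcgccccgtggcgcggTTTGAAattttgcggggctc

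DNA replication genes had smaller median differences than the genes of mitosis. Of 28 measured members, 5 were higher as deposited and 1 after quantile normalization. No member exceeded 100 in both other lines, so none could be lower. These 5 were all the members above 100 in L-428 as deposited, and 1 of 3 was counted after quantile normalization. Of all such genes, 43.7% and 26.2% were higher, and both counts rest on few members. The medians were 0.98 against L-540 and 0.97 against HDLM-2 as deposited, and 0.50 and 0.32 after quantile normalization. Against HDLM-2 as deposited, this was no higher than the 1.00 of the genes that any line had above 100. GINS2, a subunit of the replicative helicase, had 211 in L-428, compared with 43.7 for L-540 and 49.4 for HDLM-2 and was the member counted on both scales. GINS1, another subunit, had 123 in L-428, against 22.2 (L-540) and 17.3 (HDLM-2). RRM2, which supplies deoxynucleotides, had 211 in L-428, with L-540 at 79.1 and HDLM-2 at 81.1. MCM3 and MCM6, of the helicase core, had 149 and 110 in L-428, compared with 62.3 and 44.6 for L-540 and 57.7 and 20.9 for HDLM-2.

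Lists for protein synthesis, folding and degradation were assembled after the values were seen. Of 37 ribosome biogenesis factors, 8 were higher as deposited and 5 after quantile normalization. None was lower, with 1 member above 100 in both other lines as deposited and 2 after quantile normalization. The 8 were all members above 100 in L-428, beside 43.7% of all genes above 100 there. As the list was assembled after the values were seen, this share cannot be read as an excess. RPF2, an assembly factor of the large ribosomal subunit, had 220 in L-428, compared with 1.39 for L-540 and 12.4 for HDLM-2, although another cluster of this gene had 1.39 in L-428, against 1.51 (L-540) and 2.63 (HDLM-2). UTP4, of the small subunit processome, had 522 in L-428, with L-540 at 54.9 and HDLM-2 at 57.5. NIP7, another assembly factor, had 193 in L-428, compared with 23.4 for L-540 and 9.11 for HDLM-2. PA2G4, a nucleolar growth regulator, had 2702 in L-428, against 554 (L-540) and 515 (HDLM-2). The list median was 1.16 against L-540 and 1.57 against HDLM-2 as deposited, and 0.59 and 1.23 after quantile normalization. The ribosomal proteins themselves did not follow. Of 30 measured, RPL8 was higher, with 3744 in L-428, against 1421 (L-540) and 1640 (HDLM-2), and RPL18 lower, with 1248 in L-428, against 2903 (L-540) and 3309 (HDLM-2). As deposited, 7 members exceeded 100 in L-428 and 6 exceeded 100 in both other lines. The list medians were 0 against both lines as deposited, and these genes have near-identical pseudogenes that can share probes.

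Among 19 cytosolic chaperones and chaperonin subunits, 5 were higher as deposited and 2 after quantile normalization. With 10 members above 100 in L-428 as deposited and 8 after quantile normalization, these counts were near the shares over all such genes (43.7% and 26.2%). HSP90AA1, the stress-inducible cytosolic HSP90, had 547 in L-428, against 37.6 (L-540) and 8.39 (HDLM-2). CCT5, a subunit of the chaperonin that folds actin and tubulin, had 518 in L-428, with L-540 at 91.6 and HDLM-2 at 59.4. HSPA8, the constitutive HSC70, had 2587 in L-428, compared with 3387 for L-540 and 830 for HDLM-2, so L-428 lay between the lines. Of 29 proteasome subunits, 6 were higher as deposited and 3 after quantile normalization, and none was lower. With 13 members above 100 in L-428, the 6 were near the share over all such genes. PSMD1, of the regulatory particle, had 150 in L-428, against 20.6 (L-540) and 8.94 (HDLM-2). PSMA1, of the core particle, had 459 in L-428, with L-540 at 152 and HDLM-2 at 155. Other subunits had like values in the 3 lines, such as PSMB4 with 291 in L-428, against 238 (L-540) and 262 (HDLM-2). The medians of the proteasome list were 0.74 against L-540 and 0.73 against HDLM-2 as deposited, and 0.27 and 0.23 after quantile normalization, about or below those of the genes that any line had above 100.

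**Figure D4:**
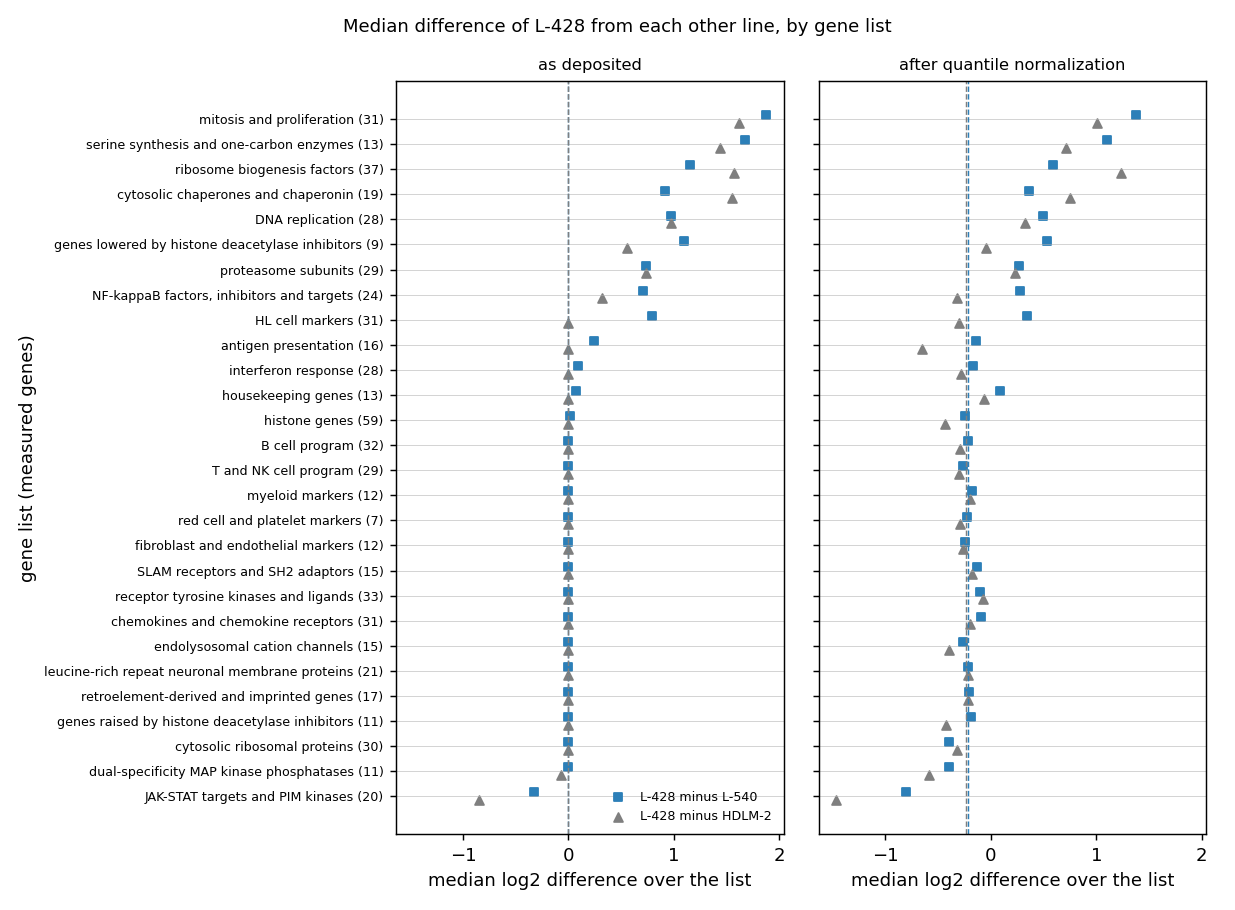
Median log2 difference of L-428 from L-540 (blue squares) and from HDLM-2 (gray triangles) over the measured members of each gene list (number in brackets), as deposited on the left and after quantile normalization on the right; dashed lines mark the medians of all genes (0 and 0 as deposited, -0.22 and -0.24 after quantile normalization). Mitosis (1.88 and 1.62 as deposited) lies farthest to the right as deposited and JAK-STAT targets with PIM kinases (-0.33 and -0.85) farthest to the left.

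Of 31 measured HL markers, 5 were higher and 2 lower in L-428 as deposited, and 3 higher and 2 lower after quantile normalization. The 5 stood among 13 markers above 100 in L-428, close to the share over all such genes. TNFAIP3, which encodes A20, an inhibitor and target of NF-kappaB, had 561 in L-428, against 72.1 (L-540) and 95.2 (HDLM-2). FSCN1, the actin-bundling protein fascin used as an HL marker, had 2075 in L-428, with L-540 at 217 and HDLM-2 at 697. BCL2L1, which encodes the survival protein BCL-XL, had 184 in L-428, compared with 40.7 for L-540 and 45.1 for HDLM-2. These 3 were higher on both scales. TRAF1, an adaptor of CD30 signaling, had 116 in L-428, against 18.6 (L-540) and 31.5 (HDLM-2). STAT6 had 156 in L-428, with L-540 at 72.4 and HDLM-2 at 73.4. Both fell short of the rule after quantile normalization. IRF4 had 598 in each of the 3 lines, a tie. The lower markers were ID2 and JUNB, whose values stand with the JAK-STAT genes. In a list of 24 NF-kappaB factors, inhibitors and targets assembled after the values were seen, TNFAIP3 and TRAF1 were higher as deposited, TNFAIP3 also after quantile normalization. These were 2 of 8 members above 100 in L-428, a lower share than the 43.7% of all such genes. None was lower, with 1 member above 100 in both other lines on either scale. The list medians were 0.71 against L-540 and 0.32 against HDLM-2 as deposited, and 0.28 and -0.32 after quantile normalization. NFKBIA, another inhibitor, had 194 in L-428, compared with 130 for L-540 and 16.1 for HDLM-2. LTA, a cytokine target, had 163 in L-428, against 10.2 (L-540) and 1230 (HDLM-2). Of the 21 promoters of this list, 6 held a kappa-B site, against 6.01% of all promoters. The TNFAIP3 promoter is printed as that of the leading gene, with 2 kappa-B sites on the opposite strand and an E-box in capitals, which do not overlap.
TNFAIP3 promoter, chr6:137867009-137867258, plus strand: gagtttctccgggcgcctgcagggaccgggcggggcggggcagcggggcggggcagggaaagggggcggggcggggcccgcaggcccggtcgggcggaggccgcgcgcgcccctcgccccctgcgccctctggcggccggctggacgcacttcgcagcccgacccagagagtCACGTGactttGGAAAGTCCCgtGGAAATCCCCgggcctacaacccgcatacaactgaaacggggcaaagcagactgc

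The lower genes included several that cytokine signaling through JAK and STAT is known to induce. ID2, an inhibitor of helix-loop-helix factors that blocks the B-cell program, had 257 in L-428, with L-540 at 1936 and HDLM-2 at 2840. PIM2, a survival kinase, had 53.4 in L-428, compared with 335 for L-540 and 249 for HDLM-2. PIM1 had 50.1 in L-428, against 187 (L-540) and 160 (HDLM-2). In each of these L-428 was the lowest line and the others lay close together. MYC, the growth-promoting transcription factor, had 39.9 in L-428, with L-540 at 172 and HDLM-2 at 212. JUNB, an AP-1 subunit, had 83.9 in L-428, compared with 270 for L-540 and 496 for HDLM-2. IL2RB, the beta chain of the interleukin-2 receptor, had 105 in L-428, against 681 (L-540) and 300 (HDLM-2). In a list of 20 JAK-STAT targets and PIM kinases, assembled after the values were seen, these 6 genes were lower on both scales. They stood among 9 members above 100 in both other lines on either scale. Of all such genes, 12% as deposited and 17.7% after quantile normalization were lower. Because the list was assembled after the values were seen, its share cannot be read as an excess. The list also contained BCL2L1 and STAT6, both higher as deposited. Its medians were -0.33 against L-540 and -0.85 against HDLM-2 as deposited, and -0.80 and -1.47 after quantile normalization. IL2RA, the alpha chain, did not enter the rule because L-540 was below 100, with 3.66 in L-428, against 45.8 (L-540) and 545 (HDLM-2). STAT3 had 547 in L-428, compared with 468 for L-540 and 468 for HDLM-2, and JAK1 had 125 in L-428, against 133 (L-540) and 125 (HDLM-2).

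DUSP5, the nuclear phosphatase of ERK, had 16.0 in L-428, with L-540 at 317 and HDLM-2 at 282. Its log2 difference from the nearer line was -4.14 as deposited, -4.69 after quantile normalization and -2.33 with the offset of 50. DUSP6, the cytosolic ERK phosphatase, ran the other way with 92.7 in L-428, against 2.79 (L-540) and 3.60 (HDLM-2), and just missed the level of 100. The ERK phosphatases DUSP5 and DUSP6 were thus ordered oppositely. Of 11 measured dual-specificity phosphatases, DUSP5 was counted as lower and was the single member above 100 in both other lines. None exceeded 100 in L-428, so none could be higher.

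**Figure D5:**
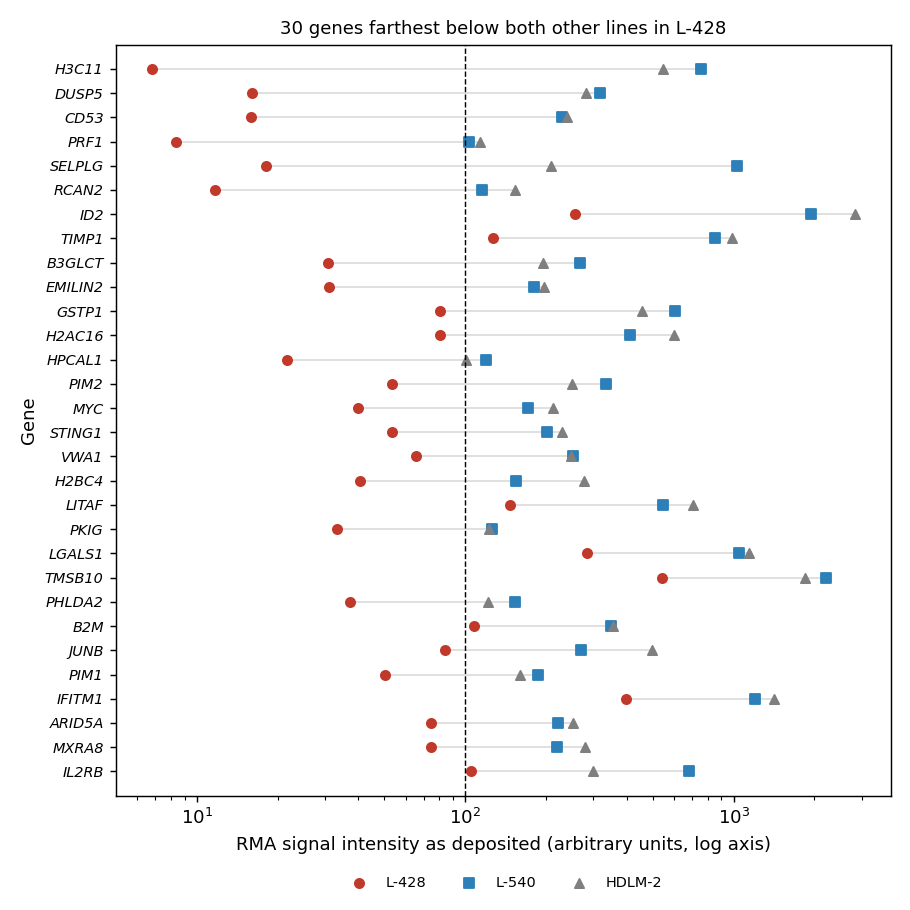
Signal intensity as deposited (logarithmic horizontal axis) of the 30 genes with the largest difference below both other lines among the 46 that were lower on both scales, with L-428 as red circles, L-540 as blue squares and HDLM-2 as gray triangles; the dashed line marks 100. L-428 ranges from 6.78 (H3C11) to 541 (TMSB10), while L-540 and HDLM-2 exceed 100 throughout.

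Other lower genes are known from leukocytes. CD53, a leukocyte tetraspanin, had 15.9 in L-428, against 229 (L-540) and 239 (HDLM-2). SELPLG, the leukocyte ligand of P-selectin, had 18.1 in L-428, with L-540 at 1031 and HDLM-2 at 208. PRF1, the pore-forming protein of cytotoxic cells, had 8.34 in L-428, compared with 103 for L-540 and 113 for HDLM-2. Both other lines were only just above the level of 100 for PRF1. Of 29 measured genes of the T and NK cell program, PRF1 and IL2RB were lower as deposited, and CD247 joined them after quantile normalization. These were all the members above 100 in both other lines, 2 as deposited and 3 after quantile normalization. Of all such genes, 12% and 17.7% were lower. CD247, the zeta chain of the T-cell receptor complex, had 12.2 in L-428, against 93.7 (L-540) and 80.5 (HDLM-2). GATA3, a transcription factor of T helper cells, was the member counted as higher as deposited, with 134 in L-428, against 22.7 (L-540) and 51.0 (HDLM-2), and was not counted after quantile normalization. It was 1 of 2 members above 100 in L-428 as deposited. Of 32 measured genes of the B cell program, 1 exceeded 100 in L-428 as deposited and none after quantile normalization. On either scale, 1 exceeded 100 in both other lines. None was higher or lower, but few could be, and 20 had the same value in L-428 and L-540. XBP1, a factor of plasma cells, had 110 in L-428, compared with 109 for L-540 and 128 for HDLM-2. PRDM1, another factor of plasma cells, had 64.4 in L-428, against 242 (L-540) and 39.0 (HDLM-2).

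Genes of antigen presentation included lower members of the class I and class II pathways. B2M, the light chain of all class I molecules, had 108 in L-428, with L-540 at 349 and HDLM-2 at 356. HLA-E, a nonclassical class I heavy chain, had 49.1 in L-428, compared with 200 for L-540 and 103 for HDLM-2. CD74, the invariant chain of class II, had 728 in L-428, against 1688 (L-540) and 2026 (HDLM-2). These were the 3 lower members of 16 measured, on both scales, and none was higher. They stood among 8 members above 100 in both other lines on either scale, beside 12% and 17.7% of all such genes. Class II chains did not share the order of CD74. HLA-DPB1 had 1829 in L-428, with L-540 at 443 and HDLM-2 at 1003, and HLA-DRA had 785 in L-428, compared with 615 for L-540 and 1815 for HDLM-2. HLA genes are near-identical copies and differ between individuals, which can shift their probe signals. Of 28 measured interferon response genes, XAF1 was higher as deposited but not after quantile normalization, with 171 in L-428, against 55.7 (L-540) and 21.5 (HDLM-2), and IFITM1 was lower on both scales, with 397 in L-428, against 1198 (L-540) and 1416 (HDLM-2). XAF1 was 1 of 2 members above 100 in L-428 as deposited, and IFITM1 was the single member above 100 in both other lines. STING1, the cytosolic sensor of cyclic dinucleotides, had 53.2 in L-428, compared with 202 for L-540 and 230 for HDLM-2. The B2M promoter is shown for comparison with that of TNFAIP3, since it also holds a kappa-B site but the gene was lower in L-428. Capitals mark this site and CCAAT, both on the opposite strand and not overlapping.
B2M promoter, chr15:44711267-44711516, plus strand: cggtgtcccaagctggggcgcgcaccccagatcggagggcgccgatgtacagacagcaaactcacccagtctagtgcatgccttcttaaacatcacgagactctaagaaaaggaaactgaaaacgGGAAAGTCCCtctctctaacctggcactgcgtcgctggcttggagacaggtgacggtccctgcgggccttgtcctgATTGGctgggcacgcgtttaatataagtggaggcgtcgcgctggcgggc

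Further lower genes act in the matrix or the cytoskeleton, for which no list was made. TIMP1, an inhibitor of matrix metalloproteases, had 127 in L-428, against 851 (L-540) and 985 (HDLM-2). LGALS1, the secreted lectin galectin-1, had 285 in L-428, with L-540 at 1046 and HDLM-2 at 1142. TMSB10, an actin-monomer binding thymosin, had 541 in L-428, compared with 2201 for L-540 and 1842 for HDLM-2. All of these kept signals above 100 in L-428. GSTP1, a glutathione transferase, had 80.6 in L-428, against 607 (L-540) and 457 (HDLM-2). EMILIN2, an extracellular matrix glycoprotein, had 31.1 in L-428, with L-540 at 180 and HDLM-2 at 197. Not all genes of the actin cytoskeleton were low in L-428. TAGLN2, an actin-binding protein, had 4367 in L-428, compared with 1960 for L-540 and 1403 for HDLM-2, and ACTB had 3022 in L-428, against 2881 (L-540) and 3440 (HDLM-2). LIMA1, which cross-links actin filaments, had 313 in L-428, with L-540 at 26.1 and HDLM-2 at 17.5.

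Genes known to respond to histone deacetylase inhibitors were examined because of the drug in the sample descriptions. Of 11 measured genes that histone deacetylase inhibitors are known to raise, none exceeded 100 in L-428 or in both other lines on either scale. None could therefore meet either rule, and the lack of calls says nothing about the drug. CDKN1A, the cell cycle inhibitor p21, had 33.0 in L-428, compared with 48.3 for L-540 and 35.1 for HDLM-2. Of 9 genes that such inhibitors are known to lower, TYMS and RRM2 were higher and MYC lower in L-428 as deposited, and RRM2 was not counted after quantile normalization. TYMS and RRM2 were the 2 members above 100 in L-428, and MYC was the single member above 100 in both other lines. Of these 9, 7 were above both other lines and 1 below, with medians of 1.09 against L-540 and 0.56 against HDLM-2 as deposited, and 0.53 and -0.05 after quantile normalization. This list shares TYMS, RRM2, CCNB1, BIRC5 and MYC with other lists given above. Of 13 measured housekeeping genes, HPRT1, POLR2A and TUBB were higher and B2M lower as deposited, HPRT1 and B2M also after quantile normalization. Single members were thus not level between the lines. The 3 higher genes stood among 9 members above 100 in L-428 as deposited, a lower share than the 43.7% of all such genes. B2M was 1 of 7 members above 100 in both other lines, near the 12% of all such genes. The list medians were 0.07 against L-540 and 0 against HDLM-2 as deposited.

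The position of the higher genes was uneven between chromosomes. Of the genes above 100 in L-428, 67.7% of 31 on chromosome 14 and 11.8% of 51 on chromosome 19 met the higher rule as deposited, beside 43.7% over all chromosomes. Neighborhoods were examined in windows of 20 consecutive measured genes, in the gene order of the RefSeq annotation, a size chosen after the values were seen. The windows held a median of 0 higher genes, and 8102 of 13757 held none. The highest number was 6, reached in 18 overlapping or separate windows. Those windows held 6 or 7 genes above 100 in L-428, the genes from which the rule could choose. A window count thus also depends on how many of its genes exceeded 100, and the windows named below were picked for the highest count. On chromosome 16 such a window held UTP4, NIP7, CYB5B, NFAT5, AARS1 and SF3B3, with UTP4, NIP7 and CYB5B among the 30 leading genes. NFAT5 was not counted after quantile normalization and the other 5 were. NFAT5, a factor of the response to osmotic stress, had 120 in L-428, against 26.1 (L-540) and 26.1 (HDLM-2). SF3B3, a splicing factor, had 509 in L-428, with L-540 at 76.7 and HDLM-2 at 39.4. On chromosome 2 a window held EML4, COX7A2L, HAAO, LRPPRC, PPM1B and PREPL, of which 5 were counted after quantile normalization. On chromosome 20, BCL2L1 and TPX2 were direct neighbors among the measured genes and higher on both scales. On chromosome 7 a window with LRRN3 also held SYPL1, NAMPT, PIK3CG, COG5 and CBLL1, and 3 of these 6 were counted after quantile normalization. DNA copy number was not measured, and its part in these neighborhoods was not tested.

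Other features of the higher genes were close to those of the genes from which the rule could choose. Their promoters had a median GC content of 64.0%, against 64.8% for genes above 100 in L-428 and 63.2% for all genes. Their genes spanned a median of 32.8 kb in the annotation, beside 25.8 kb for genes above 100 in L-428. The lower genes were shorter, with a median span of 7.21 kb, beside 16.3 kb for the genes above 100 in both other lines. Promoters were found for 32 (69.6%) of the 46 lower genes. Of these, 37.5% held CCAAT and 3.12% the CHR motif. For the genes above 100 in both other lines the shares were 39.1% and 7.69%. The shares of the lower genes rest on few promoters.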

How the data were processed

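RNA of 3 HL cell lines was measured with 1 array per line. The deposited unit is signal intensity (linear), which the authors obtained with RMA (background correction, quantile normalization and median polish) in Affymetrix Expression Console, with build hg18 per the submitters' processing notes. The study's methods state that its arrays were processed together with arrays of blood and B cells, and it is not stated whether the deposited values are from that run. Of 22011 transcript clusters, 14432 had 1 gene in the platform annotation, 2408 several and 5171 none. RefSeq (GRCh38.p14) supplied current symbols by Entrez identifier for 14404 clusters, and 14232 genes resulted. Where a gene had several clusters (197 genes), the brightest on average stood for it. Clusters with several genes or no name also met the rules, 58 and 364 for the higher rule and 10 and 80 for the lower rule, and are not described.

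The higher and lower rules were applied to the values as deposited and after quantile normalization of all clusters on the log2 scale, where tied values received the mean of their quantiles. Differences are log2 of L-428 over the other line, and the difference from the nearer line is 0 where L-428 lies between the others. The members and 20 gene lists were chosen with earlier results of these data known, and 8 further lists and some relatives of named genes (such as SH2D1A, LRRN1, SGCE, DUSP6 and IL2RA) after the values were seen. Named were the 30 genes farthest above and the 30 farthest below both other lines on both scales, the members of each list that met a rule (up to 6 a direction), the 5 highest signals of L-428 and the genes beside the 2-fold limits. Signals of different genes come from different probes and were not compared. Promoter sequences, the 250 bases before the start, and the gene order come from RefSeq (GRCh38.p14), with positions of that build. Motifs were searched on both strands. Alternatives changed the threshold (50, 200), the fold (1.5, 4), an added offset of 50, the scaling, the cluster per gene and the line compared. Calculations used Python 3.11.15, numpy 2.4.6 and pandas 2.3.3, and the steps were checked on simulated data. With 1 array per line no test was possible, and the number of arrays limits the precision.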

Additional observations from a re-analysis of the deposited data

How the results depend on the processing

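The counts depended on the scale and the limits. The 60 leading genes were chosen because they met the rules on both scales, and an offset keeps the order of values. Their differences could therefore not change sign under quantile normalization or the offset. The shift to a common median was also smaller than any of these differences. As deposited, 418 genes were higher and 46 lower, and after quantile normalization 167 and 83. Setting the arrays to 1 common median gave 262 higher genes, and an offset of 50 gave 263. A threshold of 50 gave 782 higher and 72 lower genes, a threshold of 200 gave 180 and 29, and a 4-fold limit gave 139 and 15. Against L-540 alone 103 genes were lower, and against HDLM-2 alone 107. After quantile normalization, a threshold of 50 gave 307 higher and 144 lower genes, a threshold of 200 gave 74 and 44, and a 4-fold limit gave 44 and 35. A 1.5-fold limit gave 181 lower genes on that scale. Of 56 list medians, 14 moved by more than 0.5 under quantile normalization. Under the offset, PHLDA2 moved to a log2 difference of -0.98, short of 2-fold. No paired analysis was possible because there were no replicates. The excess of L-428 signals above 100 bears on all higher calls, and its cause was not tested.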

Other observations

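Further genes from the 167 that were higher in L-428 on both scales are given here, picked after their values were seen. HNRNPA2B1, an RNA-binding protein of the spliceosome, had 760 in L-428, compared with 232 for L-540 and 63.0 for HDLM-2. SRSF3, a splicing factor, had 217 in L-428, against 45.1 (L-540) and 21.4 (HDLM-2). XPO1, the main exporter of proteins from the nucleus, had 163 in L-428, with L-540 at 36.5 and HDLM-2 at 24.3. In these 3 genes HDLM-2 was the lowest line. CBX5, which encodes heterochromatin protein HP1 alpha, had 461 in L-428, compared with 32.9 for L-540 and 73.9 for HDLM-2. RBBP7, a histone-binding subunit of deacetylase complexes, had 473 in L-428, against 58.7 (L-540) and 72.0 (HDLM-2). SET, an inhibitor of histone acetylation, had 1044 in L-428, with L-540 at 106 and HDLM-2 at 215. PAX9, a developmental transcription factor, had 258 in L-428, compared with 15.8 for L-540 and 37.4 for HDLM-2. In these 4 genes L-540 was the lowest line. CD58, the ligand of CD2, had 279 in L-428, against 62.0 (L-540) and 39.6 (HDLM-2), and CD47, which inhibits phagocytosis, had 321 in L-428, with L-540 at 64.1 and HDLM-2 at 74.5.

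Histone genes had calls in both directions. Of 59 measured, 3 were higher and 4 lower in L-428 as deposited, and 2 higher and 5 lower after quantile normalization. The higher genes stood among 14 members above 100 in L-428 as deposited and 13 after quantile normalization. Both shares were below the 43.7% and 26.2% of all such genes. The lower genes stood among 14 and 15 members above 100 in both other lines, beside 12% and 17.7% of all such genes. H3C11, a replication-dependent H3 gene, had 6.78 in L-428, compared with 756 for L-540 and 547 for HDLM-2. H3C2 and H3C3, which encode the same protein, had 646 and 1118 in L-428, compared with 461 and 957 for L-540 and 934 and 1615 for HDLM-2. H1-1, a linker histone, had 1011 in L-428, against 142 (L-540) and 266 (HDLM-2). Histone genes are near-identical copies, which can share probes, so single values are uncertain. Among the 37 genes that were lower only after quantile normalization, VIM, the intermediate filament protein vimentin, had 565 in L-428, with L-540 at 1017 and HDLM-2 at 1292. GPX4, which removes lipid peroxides, had 178 in L-428, compared with 452 for L-540 and 271 for HDLM-2. VIM and GPX4 were below both other lines on the deposited scale too, by less than 2-fold from the nearer line.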
